A study of Mus musculus with 4 samples.

Results

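The 7 genes described here encode growth factor receptors and cell surface proteins that muscle stem cells use to sense their surroundings: the Fgf receptors Fgfr1 and Fgfr4, the feedback inhibitors Spry1 and Spry2, the syndecans Sdc3 and Sdc4, and the adhesion receptor Megf10. They were taken by name, and all 7 were found among the 13772 genes measured. They were followed in 4 single-cell RNA libraries of muscle stem cells from wild-type C57BL/6 mice: aged cells on stiff polydimethylsiloxane of 29 kPa, aged cells on soft polydimethylsiloxane of 12 kPa, young cells on the 29 kPa material and young cells on the 12 kPa material. All cells spent 7 days on this silicone in medium with 10% fetal bovine serum, so that they were cultured and partly differentiated cells and not freshly isolated stem cells. The labels give neither the age of the mice in months nor how many mice were used. By its title, the study was concerned with matrix stiffness, RNA decay and the fate of aged stem cells. Each group was 1 library, so that no difference between libraries has a replicate check or a p-value.

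Fgf ligands bind receptor tyrosine kinases together with heparan sulphate, a sugar chain carried by syndecans and other core proteins, and the receptors signal through adaptor proteins, Ras and the kinase ERK. Sprouty proteins are induced by this signal and dampen it. In muscle stem cells Fgf signalling is known for driving exit from quiescence and division, Spry1 for the return to quiescence, Sdc3 and Sdc4 as surface markers of the cells, and Megf10 for holding myoblasts in an undifferentiated state. Pax7 is the transcription factor that marks the stem cells.

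After filtering, 1738 cells of the aged stiff library, 1333 of aged soft, 1479 of young stiff and 1360 of young soft were used, with 43961057 to 68222679 UMIs (molecules counted once each) per library and 28611 to 37081 in the median cell. A single cell barcode was shared, between aged stiff and young soft. The label of muscle stem cells fitted a part of the cells: Pax7 had at least 1 UMI in 29.1% of aged stiff, 34.6% of aged soft, 47.3% of young stiff and 52.6% of young soft cells. Clustering without the 7 genes gave 7 clusters. Cluster 3 was satellite cell and progenitor-like by 5 of 6 measured markers and led by Apoe, Ly6d and Mgp. Its 10 leading genes held none of these markers and 1 of the fibro-adipogenic list, Ly6a. Fibro-adipogenic was its second class, by 3 of 6 measured markers, so that clusters are compared by number. Clusters 0 and 6 were proliferating-like and led by genes of S phase and of mitosis, cluster 2 was committed myoblast-like and led by Cdkn1c, and clusters 1, 4 and 5 were myocyte-like. Satellite cell and progenitor was the second class of clusters 0 and 6, by 4 and 3 of 6 measured markers. Cluster 4 was mixed, with 5 of 8 myocyte markers and 4 of 5 committed myoblast markers, where cluster 2 had 3 of these 5. Its cells are counted as myocyte-like throughout. The myocyte-like clusters took 71.9% of aged stiff, 65.7% of aged soft, 46.1% of young stiff and 43.2% of young soft cells, most of them in cluster 5 in the aged libraries and in clusters 1 and 4 in the young ones. The 6 fibro-adipogenic markers summed to 35.8 CPM (the UMIs of a cell scaled to a common total) in aged stiff, 61.7 in aged soft, 35.9 in young stiff and 36.7 in young soft cells. Most of this was Ly6a, at 32.9, 57.7, 19.0 and 15.5 CPM in the same order, and Col15a1, at 0.897, 0.829, 14.6 and 19.3 CPM. Pdgfra had at most 0.653 CPM, Lum at most 0.854 and Dcn at most 2.34 in any library. The 5 immune markers summed to 6.64, 6.59, 1.71 and 1.35 CPM, with Lyz2 at 5.10 CPM in aged stiff, 4.92 in aged soft and at most 0.244 in the young libraries, and Ptprc had at most 0.089. Cdh5 and Kdr of endothelial cells had at most 0.104. The tenocyte list summed to 303 CPM in aged stiff, 293 in aged soft, 168 in young stiff and 143 in young soft cells, nearly all of it Scx, while Tnmd was at 0 in 3 libraries and at 0.062 CPM in young stiff. The smooth muscle and pericyte list summed to 1481 CPM in aged stiff, 1650 in aged soft, 1769 in young stiff and 1680 in young soft cells. Nearly all of it was Acta2, while Myh11 had at most 0.323 CPM. The part of these lists in the age comparisons was not tested. Cells with under 1% mitochondrial UMIs numbered 109, 83, 13 and 21 in the same order, and without them the log2 ratio of Sdc3, aged over young, was -1.66 on stiff and -1.40 on soft.

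Fgfr4, Sdc3, Sdc4 and Fgfr1 were higher in Pax7-detected cells (at least 1 Pax7 UMI) than in the other cells of the same library, in 4 of 4 libraries. Spry1, Spry2 and Megf10 did not pass the test. The comparison paired the Pax7-detected and other cells of each library in limma on log2(mean CPM + 1), over 9594 genes with a mean of at least 5 CPM. Adjusted p-values are Benjamini-Hochberg values over all of them, and 0.05 was the threshold. Of all genes tested, 55.7% were called higher and 23.4% lower, so that 4 of 7 genes higher and 0 lower is close to the background count. The counts of further gene groups below are to be read against the same shares. The median difference of the 7 was 1.06 on the log2 scale, against 0.27 over all genes tested. Myocyte-like cells made up 33.0%, 30.4%, 10.3% and 12.8% of Pax7-detected cells in aged stiff, aged soft, young stiff and young soft, against 87.8%, 84.4%, 78.3% and 76.9% of the other cells. The values within the remaining clusters are therefore given below as well. In that comparison limma called 3936 of 9592 genes higher and 2004 lower, and calls outside the myocyte-like clusters are to be read against these counts.

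Fgfr4, an Fgf receptor known from myogenic progenitors, had a mean level of 115 CPM in aged stiff, 116 in aged soft, 103 in young stiff and 91.3 in young soft Pax7-detected cells, against 17.7, 22.6, 16.9 and 17.0 CPM in the other cells of these libraries. All 4 Pax7-detected levels lay above all 4 others. The share of all genes that part the 2 kinds of cell in this way was not counted, here or for Fgfr1 below. The log2 difference was 2.46 (SE 0.068, n = 4 libraries, limma adjusted p = 3.64e-06). It was 0.85 outside the myocyte-like clusters, with a mean of 136 CPM in Pax7-detected and 75.3 CPM in other cells (limma adjusted p = 8.61e-07).

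Fgfr1, the more widely used receptor of the family, had 145 CPM in aged stiff, 152 in aged soft, 216 in young stiff and 193 in young soft Pax7-detected cells, against 74.3, 79.8, 86.8 and 92.0 CPM in the other cells. The groups did not overlap, but the other cells kept a substantial level. The log2 difference was 1.06 (SE 0.073, limma adjusted p = 5.56e-05, n = 4), and 0.44 outside the myocyte-like clusters (limma adjusted p = 2.49e-05).

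Sdc3, a transmembrane heparan sulphate core protein, had 63.2 CPM in aged stiff, 73.8 in aged soft, 155 in young stiff and 154 in young soft Pax7-detected cells, against 13.1, 16.0, 38.1 and 41.0 CPM in the other cells. Within both kinds of cell the aged libraries were low and the young ones high. The log2 difference between Pax7-detected and other cells was 2.05 (SE 0.064, limma adjusted p = 4.87e-06, n = 4), and 0.55 outside the myocyte-like clusters (limma adjusted p = 0.000121).

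Sdc4, a syndecan that also sits in focal adhesions, had 131 CPM in aged stiff, 135 in aged soft, 129 in young stiff and 129.5 in young soft Pax7-detected cells, against 53.4, 60.6, 37.3 and 36.8 CPM in the other cells. The Pax7-detected levels were close to each other, and among the other cells the 2 aged libraries were the higher ones. The log2 difference was 1.49 (SE 0.12, limma adjusted p = 0.000115, n = 4), and 0.88 outside the myocyte-like clusters (limma adjusted p = 6.37e-06).

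The Sprouty genes and Megf10 were spread over both kinds of cell. Spry1 had 28.2, 26.7, 27.4 and 25.9 CPM in Pax7-detected cells of aged stiff, aged soft, young stiff and young soft, against 24.3, 27.0, 19.9 and 22.3 CPM in the other cells. It was higher in Pax7-detected cells in 3 of 4 libraries, with a log2 difference of 0.21 (95% interval 0.012 to 0.41, limma adjusted p = 0.0516, n = 4). In the clusters that are not myocyte-like Spry1 had a mean of 27.2 CPM in Pax7-detected cells, against 18.7 CPM in other cells (log2 difference 0.53, limma adjusted p = 0.00102). Over all cells these means were 27.1 and 23.4 CPM, so that the other cells were the ones that changed. Without the aged soft library the difference over all cells was 0.29 (limma adjusted p = 0.0224).

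Spry2 had 63.9, 72.0, 64.4 and 78.8 CPM in Pax7-detected cells of aged stiff, aged soft, young stiff and young soft, against 52.9, 61.6, 62.4 and 77.7 CPM in the other cells. The 2 kinds of cell overlapped, with a log2 difference of 0.14 (95% interval -0.0075 to 0.29, limma adjusted p = 0.0727, n = 4). The sign turned outside the myocyte-like clusters, where Spry2 averaged 70.6 CPM in Pax7-detected and 93.5 CPM in other cells (log2 difference -0.40, limma adjusted p = 0.000282).

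Megf10 had 70.4, 70.1, 73.7 and 74.2 CPM in Pax7-detected cells of aged stiff, aged soft, young stiff and young soft, against 68.9, 72.2, 70.4 and 71.1 CPM in the other cells. Its log2 difference was 0.029 (95% interval -0.077 to 0.13, limma adjusted p = 0.557, n = 4). Megf10 was likewise lower outside the myocyte-like clusters, at 72.8 CPM in Pax7-detected and 104 CPM in other cells (log2 difference -0.51, limma adjusted p = 2.28e-05). The cells without a Pax7 UMI that remain there include those of cluster 2, where Spry2 and Megf10 had their highest levels.

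**Figure D1:**
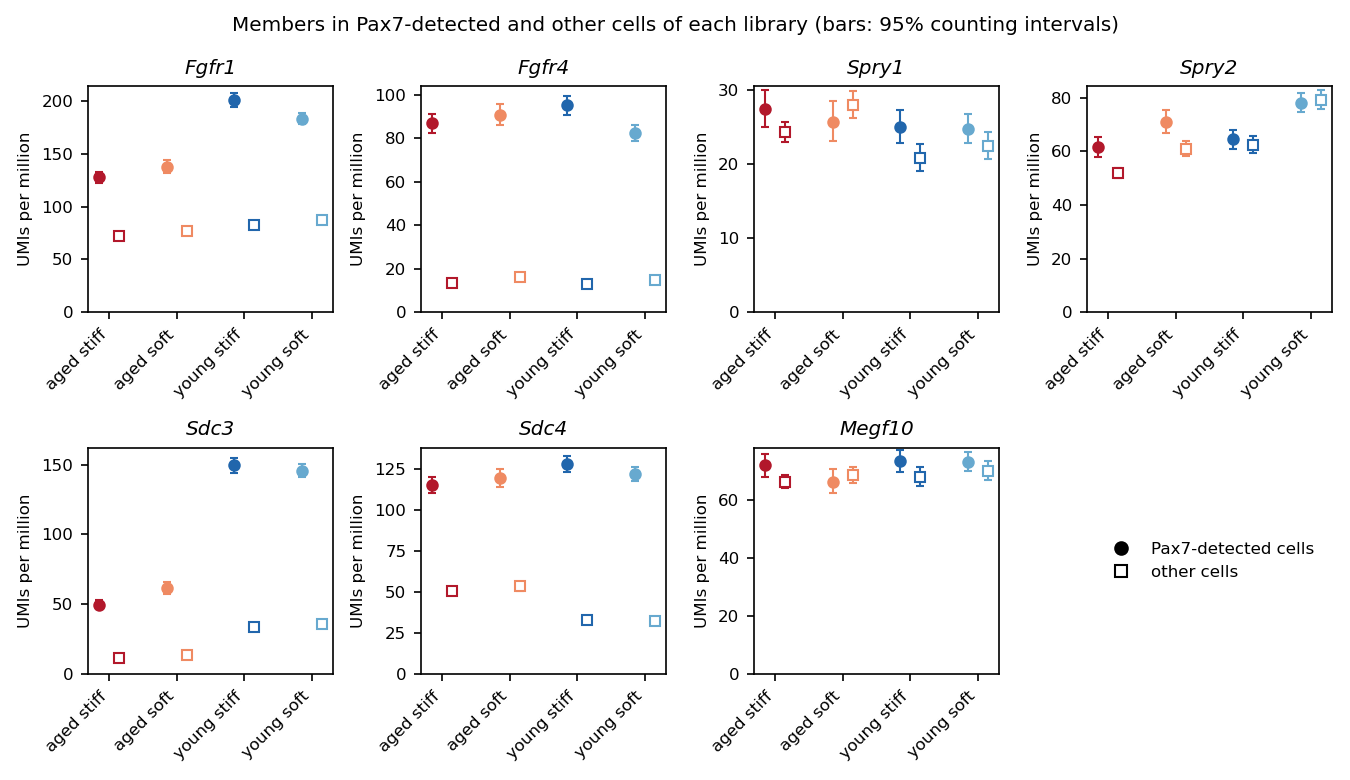
Summed UMIs of each of the 7 genes on the scale of CPM (y axis) in Pax7-detected cells (filled circles) and other cells (open squares) of each library (x axis), with exact Poisson intervals at 95% that cover counting error only. Filled circles stand above open squares in all 4 libraries for Fgfr1, Fgfr4, Sdc3 and Sdc4, and the symbols lie close together for Spry1, Spry2 and Megf10.

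Genes around the 7 in the same pathway were looked at in a list of 81 genes in 9 groups, of which 58 were tested, and of these 39 rose and 12 fell in Pax7-detected cells in the limma test, where 55.7% of all genes were called higher and 23.4% lower. Their median log2 difference was 0.64, against 0.27 over all genes. The feedback inhibitors other than Spry1 and Spry2 rose in 7 of 7 tested, among them Il17rd, a membrane inhibitor of Fgf signalling, at 9.39 CPM in Pax7-detected and 0.698 CPM in other cells (log2 difference 2.57, limma adjusted p = 2.53e-05, 4 of 4 libraries). Spry4, a further Sprouty gene, averaged 9.74 CPM in Pax7-detected and 2.78 CPM in other cells (log2 difference 1.46, limma adjusted p = 0.000247). The ERK-responsive transcription factors rose in 4 of 4 tested, with Etv1 at 41.2 CPM in Pax7-detected and 7.71 CPM in other cells (log2 difference 2.26).

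Of the other heparan sulphate core proteins 3 of 6 rose and 2 fell, near the shares of all genes. The 3 that rose were Sdc2, at 181 CPM in Pax7-detected and 24.7 CPM in other cells, Gpc6 at 25.3 and 3.17 CPM and Sdc1 at 81.7 and 15.9 CPM. Of the genes that build or edit heparan sulphate 9 of 10 rose and 1 fell, with Sulf1, which removes sulphate groups, at 52.1 CPM in Pax7-detected and 5.68 CPM in other cells, and Ext1, which builds the chain, at 55.6 and 10.3 CPM. Of the syndecan partners 4 of 6 rose and 1 fell. They were led by Fn1, the matrix protein fibronectin, at 283 CPM in Pax7-detected and 28.3 CPM in other cells. Of the genes listed as Megf10 partners, which were Notch pathway genes and Megf9, 4 of 6 rose and 0 fell. Notch3, a Notch receptor, led them at 92.6 CPM in Pax7-detected and 5.13 CPM in other cells.

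The other Fgf receptors tested and 2 Fgf genes went the opposite way. Both other receptors, Fgfr3 and Fgfrl1, fell, and so did Fgf13 and Fgf21, the only 2 tested of 9 Fgf genes listed. Fgf13 averaged 26.1 CPM in Pax7-detected and 71.0 CPM in other cells. Fgf21, a secreted hormone-like Fgf, averaged 38.7 CPM in Pax7-detected and 133 CPM in other cells (log2 difference -2.19, limma adjusted p = 0.00179, lower in 4 of 4 libraries). Adaptors and kinases were mixed, with 8 of 15 higher and 4 lower. The myocyte-like shares given above differ between the 2 kinds of cell for each of these groups as well, and their part in the counts was not tested.

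Across the 7 clusters the 7 genes are described by means over the cells of all libraries, which fill the clusters unequally. Fgfr1, Fgfr4, Sdc3 and Sdc4 were higher in clusters 0, 3 and 6 than in the myocyte-like clusters. Fgfr4 ranged most, from 159.9 CPM in the mitotic cluster 6, 124 in cluster 0 and 121 in cluster 3 to 67.5 in cluster 2, 11.5 in cluster 4, 6.89 in cluster 5 and 2.75 in cluster 1. Fgfr1 was highest in cluster 3, at 235 CPM, and kept 58.8 CPM in its lowest cluster, the myocyte-like cluster 1. Sdc3 had 164 CPM in the S phase cluster 0 and 6.58 CPM in cluster 5, the ends of its pooled range, and the order differed between libraries. Its highest cluster was 0 in aged stiff, at 115 CPM, and in young stiff, but cluster 6 in aged soft, at 123 CPM against 85.3 in cluster 0, and cluster 3 in young soft, at 179 CPM against 175. Cluster 1 was below cluster 5 in 3 of 4 libraries. Sdc4 had 167 CPM in cluster 3, 24.6 CPM in cluster 4 and 57.2 CPM in cluster 5. In the few young cells of cluster 5 it had 84.1 CPM in young soft and 73.3 in young stiff. This was above cluster 2, at 57.6 and 61.6 CPM, while in both aged libraries cluster 5 was below cluster 2. In young stiff its level in cluster 0 was just above that in cluster 3, at 141 against 139 CPM, and in young soft clusters 3 and 6 were level, at 162.5 and 162.4 CPM.

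Spry2 and Megf10 had their highest mean in all 4 libraries in cluster 2, which is led by the cell cycle inhibitor Cdkn1c: Spry2 had a pooled mean of 99.1 CPM there and 50.9 CPM in cluster 5. Megf10 had 118 CPM in cluster 2 and was between 57.6 and 74.8 CPM in the other 6 clusters. The Megf10 level of cluster 2 was alike in all libraries, at 119 CPM in aged stiff, 120.3 in aged soft, 117 in young stiff and 116 in young soft. Spry1 ranged from 16.9 CPM in clusters 1 and 2 to 32.3 CPM in cluster 3 and 31.3 CPM in the myocyte-like cluster 4.

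**Figure D2:**
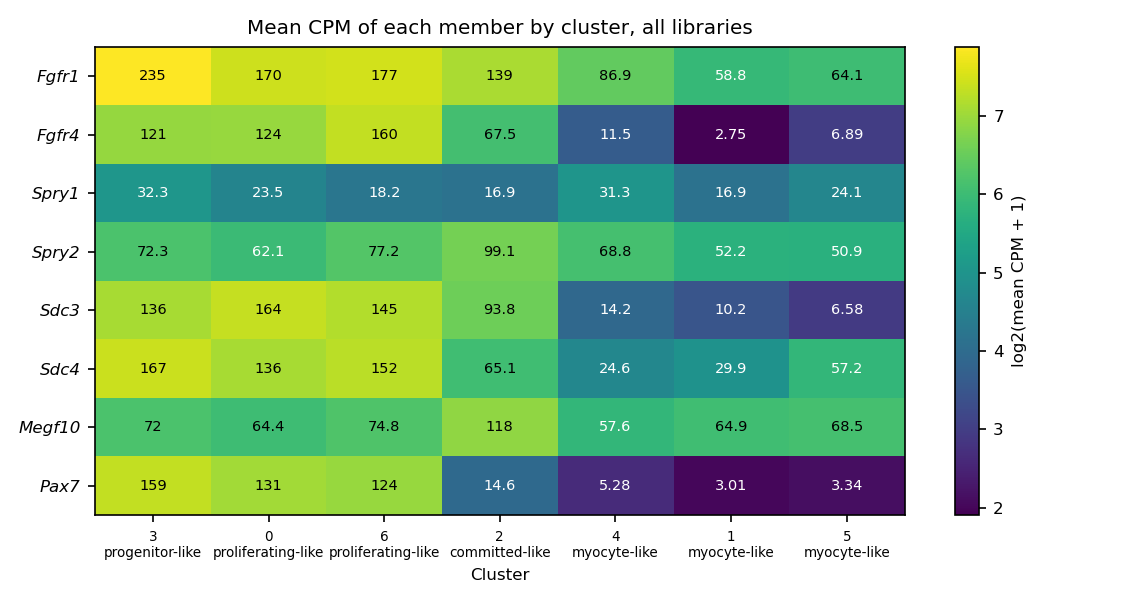
Mean CPM of the 7 genes and of Pax7 (rows) in each cluster (columns), over the cells of all libraries, with colour on a log2(mean CPM + 1) scale and the CPM printed in each cell. Fgfr4 and Sdc3 drop below 15 CPM in the 3 myocyte-like clusters, Fgfr1 stays above 58 CPM everywhere, and Spry2 and Megf10 are highest in cluster 2.

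The sequences just upstream of Fgfr4 and Sdc3 are shown because these 2 genes had the largest Pax7 differences and, in the age comparison of undifferentiated cells below, opposite ones. They are the 250 bases before each RefSeq start on GRCm38.p6, 5′ to 3′ along the gene, with CANNTG E-boxes, the motif that myogenic bHLH factors recognise, in capitals. Fgfr4 is at chr13:55152568-55152817 on the plus strand and Sdc3 at chr4:130792287-130792536 on the plus strand.
Fgfr4: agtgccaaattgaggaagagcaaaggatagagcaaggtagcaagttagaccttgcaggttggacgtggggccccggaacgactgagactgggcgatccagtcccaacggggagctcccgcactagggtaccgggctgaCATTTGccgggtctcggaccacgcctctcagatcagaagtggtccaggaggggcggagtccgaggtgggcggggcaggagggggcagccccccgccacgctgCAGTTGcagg
Sdc3: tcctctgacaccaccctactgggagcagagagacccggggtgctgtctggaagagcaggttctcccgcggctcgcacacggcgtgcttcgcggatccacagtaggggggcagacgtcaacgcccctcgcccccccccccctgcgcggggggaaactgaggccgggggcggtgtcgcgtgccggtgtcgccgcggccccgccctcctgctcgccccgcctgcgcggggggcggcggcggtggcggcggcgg
The Fgfr4 window held 2 CANNTG matches and the Sdc3 window 0, where 66.2% of 32851 mouse promoter windows of this length held at least 1. Neither held CAGCTG or CAGGTG, 2 forms of this motif that 13.0% and 17.2% of all windows held. Of the other windows at hand, that of Spry1 held 2 CANNTG matches and that of Spry2 held 1. The window of Sdc4, whose start was not found in transcript sequences, held 0. GC made up 64% of the Fgfr4 bases and 76.4% of the Sdc3 bases. GGGCGG, the letters of the GC box, occurred 2 times upstream of Fgfr4 and 3 times upstream of Sdc3, counting both strands, and in 32.7% of all windows. A match is a description of letters and not of binding.

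In all cells together, Sdc3 was the gene of the 7 that differed most between ages. It had 27.7 CPM in aged stiff against 93.3 in young stiff cells, and 36.0 CPM in aged soft against 101 in young soft cells, so that both aged libraries lay below both young ones. This is 3.29-fold lower on the stiff and 2.75-fold lower on the soft substrate (log2 ratio of mean CPM + 1, -1.72 and -1.46). Summed UMIs, each scaled to its library's total, gave a ratio of 0.246 (exact conditional binomial interval at 95%, 0.232 to 0.262) on stiff and 0.312 (0.293 to 0.332) on soft. Such intervals cover counting error between 2 libraries only.

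Fgfr1 was lower in aged cells on both substrates, at 94.9 CPM in aged stiff against 148 in young stiff cells and 105 CPM in aged soft against 145 in young soft cells. Of all genes with a mean of at least 5 CPM over both libraries, 19.8% were at least 1.5 times apart in either direction on stiff and 17.8% on soft. By mean CPM this held, of the 7 genes, for 2 on stiff (Sdc3 and Fgfr1) and for 1 on soft (Sdc3), which is close to that background. More of all these genes were lower than higher in aged cells, 1503 against 378 on stiff and 1359 against 345 on soft, and the median log2 ratio was -0.16 on stiff and -0.15 on soft. Median-of-ratios scaling moved every ratio up by 0.17 on stiff and 0.16 on soft and left 938 lower and 743 higher on stiff and 827 lower and 603 higher on soft.

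The mean CPM of the other 5 genes stayed within 1.5 times over all cells. Fgfr4 had 46.1 CPM in aged stiff against 57.5 in young stiff cells and 55.0 CPM in aged soft against 56.1 in young soft cells. By summed UMIs its ratio was 0.651 (0.613 to 0.691) on stiff, past 1.5 times, and 0.818 (0.770 to 0.870) on soft. The soft ratio of mean CPM changed sign with the scaling, at -0.028 against 0.13 with median-of-ratios, and was 0.031 without the cells under 1% mitochondrial UMIs. Spry2 had 56.1 CPM in aged stiff against 63.3 in young stiff cells, and 65.2 CPM in aged soft against 78.3 in young soft cells. Spry1 was the only one of the 7 with a higher mean in aged cells on both substrates under either scaling, at 25.5 CPM in aged stiff against 23.4 in young stiff cells and 26.9 CPM in aged soft against 24.2 in young soft cells. Sdc4 (76.0 CPM in aged stiff and 86.5 in aged soft, 80.7 in young stiff and 85.6 in young soft) and Megf10 (69.3 and 71.5 in the aged, 72.0 and 72.8 in the young libraries) stayed within 1.1 times of each other between ages, and with median-of-ratios scaling both were higher in aged cells on both substrates.

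Within Pax7-detected cells Sdc3 was lower in both aged libraries, while the mean level of Fgfr4 was higher. There were 506 such cells in aged stiff, 461 in aged soft, 700 in young stiff and 716 in young soft. By the levels given above, Sdc3 in Pax7-detected cells had a log2 ratio of aged over young of -1.28 on stiff and -1.06 on soft, and a UMI ratio of 0.332 (0.307 to 0.358) on stiff and 0.422 (0.392 to 0.455) on soft. By mean CPM it was the only one of the 7 past 1.5 times, where 18.1% of all genes on stiff and 14.8% on soft were. By summed UMIs Fgfr1 was past it on stiff as well. The median log2 ratio over all genes was -0.11 on stiff and -0.098 on soft.

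For Fgfr4 the mean CPM and the summed UMIs of Pax7-detected cells did not give the same direction on stiff. The mean level was higher in aged cells on both substrates, with log2 ratios of 0.16 on stiff and 0.35 on soft, but the ratio of summed UMIs, in which deep cells weigh more, was 0.912 (0.852 to 0.977) on stiff and 1.10 (1.03 to 1.18) on soft. Without the myocyte-like clusters both measures were higher in aged cells. There Pax7-detected cells had 166 CPM of Fgfr4 in aged stiff against 114 in young stiff cells, and 162 CPM in aged soft against 104 in young soft cells. The UMI ratio was 1.41 (1.31 to 1.51) on stiff and 1.54 (1.44 to 1.66) on soft.

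In the same cells Sdc3 had 89.6 CPM in aged stiff against 171 in young stiff cells and 101 CPM in aged soft against 176 in young soft cells, with UMI ratios of 0.502 (0.464 to 0.544) and 0.575 (0.532 to 0.621). Fgfr1 was lower in aged Pax7-detected cells, with a UMI ratio of 0.635 (0.603 to 0.670) on stiff and 0.751 (0.712 to 0.792) on soft, and outside the myocyte-like clusters of 0.795 (0.749 to 0.844) and 0.868 (0.818 to 0.922). Sdc4 outside the myocyte-like clusters was at 170.1 CPM in aged stiff against 139 in young stiff cells and 175 CPM in aged soft against 144 in young soft cells. Its UMI ratio was 1.18 (1.11 to 1.26) on stiff and 1.25 (1.17 to 1.33) on soft. For Spry1 and Megf10 these intervals held 1 on both substrates, and for Spry2 on stiff.

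The same held cluster by cluster for Fgfr4 and Sdc3 in the clusters that are not myocyte-like, and the myocyte-like cells are given further below. In cluster 3 Fgfr4 had 164 CPM in aged stiff against 93.5 in young stiff cells and 147 CPM in aged soft against 94.0 in young soft cells. In cluster 6 it had 232 CPM in aged stiff against 154 in young stiff cells and 231 CPM in aged soft against 112 in young soft cells. In cluster 0 it had 169.9 CPM in aged stiff against 115 in young stiff cells and 179.8 CPM in aged soft against 106 in young soft cells, and in cluster 2 the UMI ratio was 1.19 (0.985 to 1.44) on stiff and 1.22 (1.01 to 1.47) on soft. The 2 aged libraries thus lay above the 2 young ones in clusters 0, 2, 3 and 6. The share of all genes that part the ages in this way within a cluster was not counted, here or for Sdc3 and Fgfr1 below.

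Sdc3 had 87.3 CPM in aged stiff against 162 in young stiff cells of cluster 3, and 97.4 CPM in aged soft against 179 in young soft cells. In cluster 2 it had 53.1 CPM in aged stiff against 123 in young stiff cells and 59.0 CPM in aged soft against 139 in young soft cells. The UMI ratio was below 1 with its whole interval in clusters 0, 2, 3 and 6 on both substrates, between 0.409 (0.347 to 0.481) in cluster 2 on stiff and 0.754 (0.632 to 0.895) in cluster 6 on soft. Fgfr1 was also lower in aged cells in these 4 clusters, with UMI ratios between 0.739 and 0.834. Clusters 0 and 6 were small in aged libraries, at 68 and 36 cells in aged stiff and 55 and 47 in aged soft, against 210 and 130 in young stiff and 249 and 106 in young soft.

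**Figure D3:**
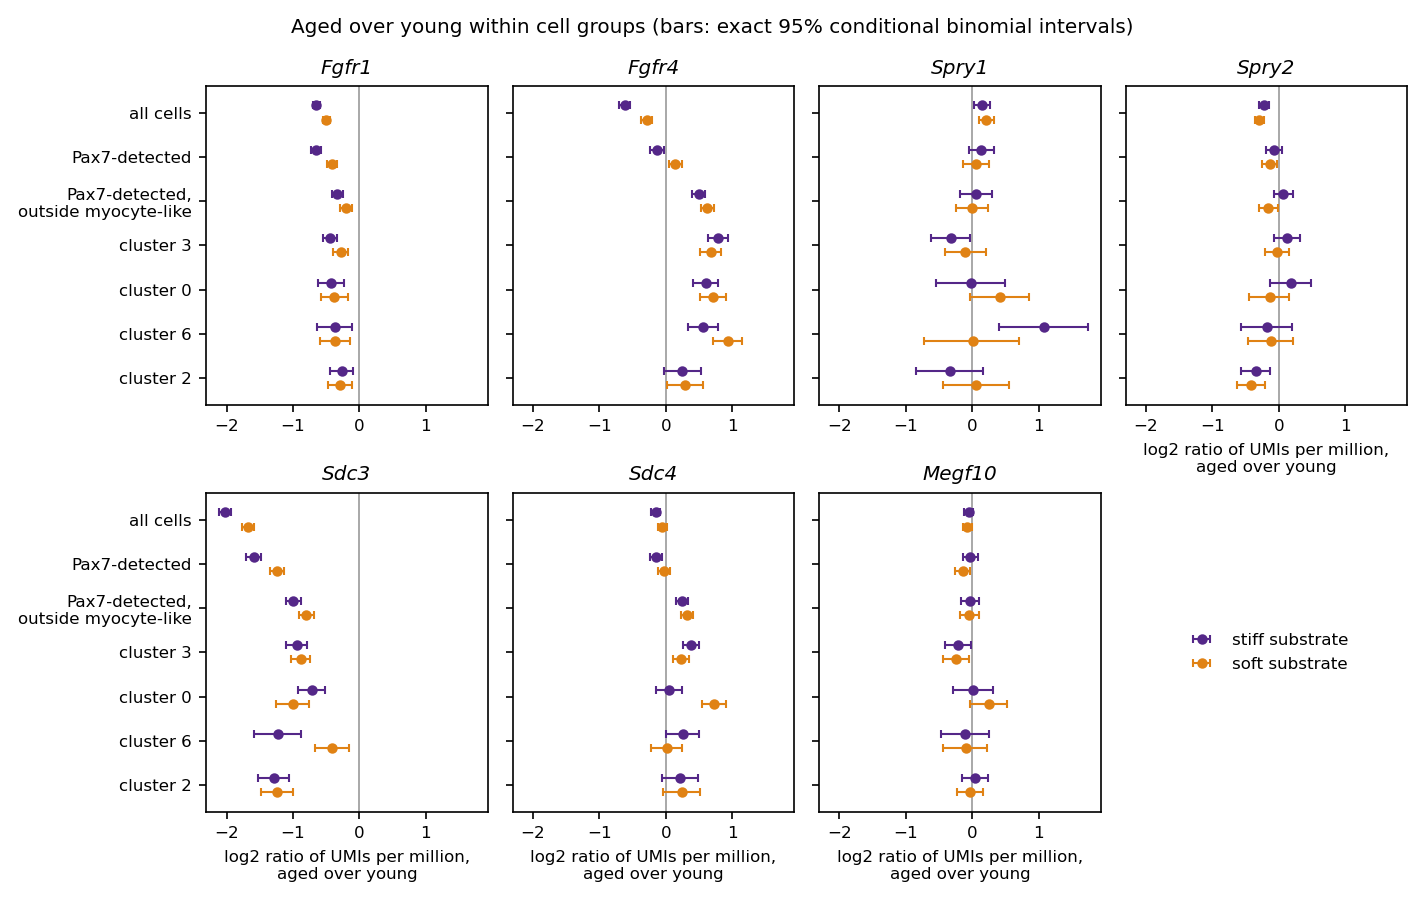
Log2 ratio of summed UMIs scaled to the total, aged over young (x axis), on the stiff (purple) and soft (orange) substrate, in all cells, Pax7-detected cells and the clusters that are not myocyte-like (rows), with exact conditional binomial intervals at 95%. Sdc3 lies left of 0 in every row, Fgfr4 lies left of 0 in all cells and right of 0 in the rows below that leave out myocyte-like cells, and Spry1, Spry2 and Megf10 lie near 0 in most rows.

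In the myocyte-like cells the syndecans differed from each other. Sdc4 had 49.4 CPM in aged stiff against 28.0 in young stiff cells and 49.4 CPM in aged soft against 28.2 in young soft cells, with UMI ratios of 1.90 (1.74 to 2.08) and 1.80 (1.65 to 1.98). Sdc3 was low, at 7.37 CPM in aged stiff against 13.4 in young stiff cells and 8.63 CPM in aged soft against 12.0 in young soft cells. Different clusters hold most of these cells in the 2 ages, cluster 5 in aged and clusters 1 and 4 in young. In cluster 4, which all libraries fill, the Sdc4 UMI ratio was 1.42 (1.19 to 1.70) on stiff and 1.22 (1.03 to 1.46) on soft. In cluster 5, with 30 young stiff and 21 young soft cells, Sdc4 had a ratio below 1, at 0.814 (0.625 to 1.08) on stiff and 0.691 (0.528 to 0.922) on soft. For Sdc3 in cluster 4 it was 0.638 (0.503 to 0.807) on stiff and 1.05 (0.831 to 1.32) on soft. Fgfr4 was low in myocyte-like cells and higher in aged ones, at 8.55 CPM in aged stiff against 4.19 in young stiff cells and 9.52 CPM in aged soft against 5.87 in young soft cells. Its UMI ratio was 2.04 (1.63 to 2.57) on stiff and 1.55 (1.27 to 1.89) on soft. In cluster 4 it was 2.08 (1.55 to 2.83) and 1.60 (1.24 to 2.07), and in cluster 1, with 13 aged soft cells, 0.648 (0.016 to 3.82) on soft.

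Between substrates none of the 7 genes was 1.5 times apart in all cells or in Pax7-detected cells. At least 1.5 times apart between stiff and soft were 0.431% of all genes in aged and 0.28% in young cells, and 0.671% and 0.589% in Pax7-detected cells, with 0 of the 7 genes in each of these 4 comparisons. Within single clusters of few cells some were: in cluster 6 Sdc3 had 69.9 CPM in aged stiff against 123 in aged soft cells (UMI ratio 0.556, 0.417 to 0.735), and in cluster 0 Spry1 had 20.7 CPM in aged stiff against 33.5 in aged soft cells (0.653, 0.426 to 0.993). The others were Spry1 in cluster 6 of the young libraries, and genes in cluster 1 of the aged and cluster 5 of the young libraries, where a library held as few as 13 cells. Spry2 had the lower level on stiff in both ages, at 56.1 CPM in aged stiff against 65.2 in aged soft cells and 63.3 CPM in young stiff against 78.3 in young soft cells. The UMI ratio of stiff over soft was 0.848 (0.808 to 0.890) in aged and 0.805 (0.767 to 0.845) in young cells. In Pax7-detected cells it was 0.866 (0.794 to 0.944) and 0.826 (0.769 to 0.887). For Pax7-detected cells outside the myocyte-like clusters the aged ratio was 0.959 (0.854 to 1.08), whose interval holds 1.

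Sdc3 was lower on stiff in aged cells, with a UMI ratio of 0.750 (0.695 to 0.809) in all cells, and close to equal in young cells, at 0.950 (0.910 to 0.993). In Pax7-detected cells it was 0.806 (0.733 to 0.887) in aged and 1.03 (0.977 to 1.08) in young cells. The aged ratio was 0.884 (0.810 to 0.965) without the myocyte-like clusters, which took a larger share of aged stiff than of aged soft cells, and 0.867 (0.785 to 0.957) in Pax7-detected cells without them. In cluster 0 it was above 1, at 1.32 (1.07 to 1.64). Fgfr4 was 1.16 (1.08 to 1.23) on stiff in young and 0.956 (0.887 to 1.03) in aged Pax7-detected cells. For Spry1, Sdc4 and Megf10 the intervals held 1 in Pax7-detected cells of both ages. Whether the stiffness ratios differ between ages was not tested, with 1 library in each group.

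Detection in single cells was compared after thinning every cell to 10000 UMIs, which left out 2 cells of aged stiff, 11 of aged soft, 11 of young stiff and 7 of young soft. Sdc3 then had a UMI in 18.1% of aged stiff, 22.6% of aged soft, 42.0% of young stiff and 45.5% of young soft cells. Without thinning the shares were 36.4%, 39.6%, 61.6% and 66.5%. The aged shares lay below the young ones either way. In myocyte-like cells, where its level is lowest, Sdc3 was found in 6.17%, 8.11%, 8.82% and 9.39% of thinned cells.

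Within Pax7-detected cells, gated again after thinning, Sdc3 was found in 48.1% of aged stiff, 50.2% of aged soft, 72.1% of young stiff and 71.6% of young soft cells. Fgfr4 was found in 63.9%, 60.7%, 54.2% and 54.3% of them, and in 7.61%, 9.60%, 3.38% and 5.29% of thinned myocyte-like cells. The aged shares of Fgfr4 were thus the higher ones among Pax7-detected cells, while over all cells they were the lower ones, at 23.3% in aged stiff, 27.5% in aged soft, 30.1% in young stiff and 31.6% in young soft. Megf10 had a UMI in 44.8%, 45.1%, 44.9% and 46.3% of all thinned cells, a spread within the binomial intervals. The median depth before thinning was 29640, 27070, 25707 and 32453.5 UMIs in Pax7-detected and 40943, 37833, 32687 and 41045 UMIs in myocyte-like cells of aged stiff, aged soft, young stiff and young soft.

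**Figure D4:**
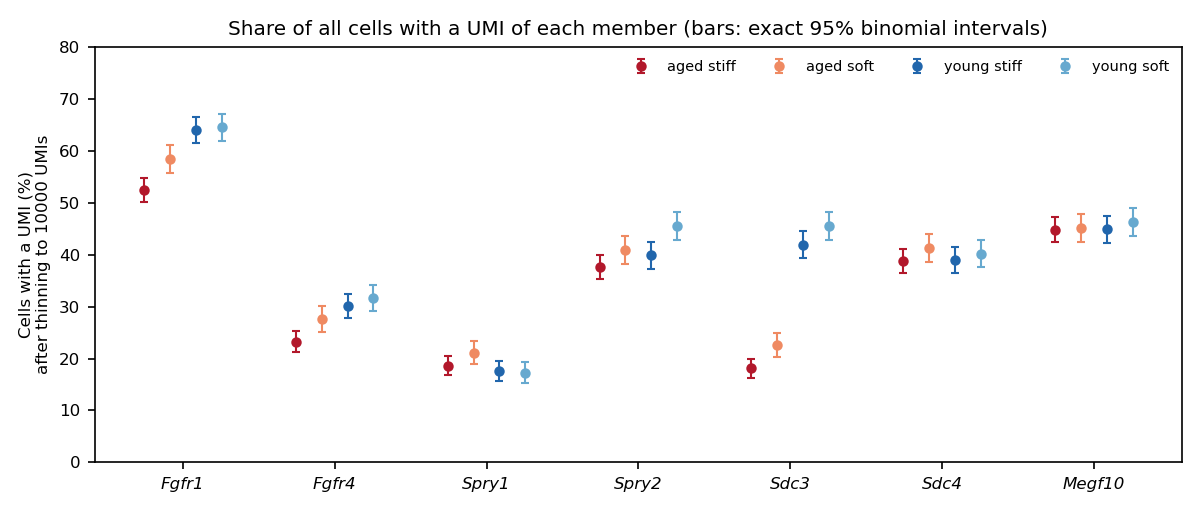
Share of all cells with at least 1 UMI of each gene after thinning to 10000 UMIs (y axis, percent), for the 4 libraries side by side, with exact binomial intervals at 95%. The 2 aged libraries lie far below the 2 young ones for Sdc3, and the 4 libraries lie close together for Spry1, Sdc4 and Megf10.

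The number of Pax7 UMIs in a thinned cell also ordered some of the genes. Pooled over all libraries Fgfr1 had 93.0 CPM in cells with 0 Pax7 UMIs, 189 with 1, 206 with 2 and 231 with 3 or more. Fgfr4 had 29.2, 109, 126 and 135 CPM in the same order, and Spry1 had 23.7, 23.7, 29.7 and 36.3. Sdc3 had 35.6, 130.1, 151 and 151 CPM and Sdc4 57.9, 142, 164 and 148. Single libraries could differ: in aged soft, Sdc3 had 23.4, 65.2, 115 and 102 CPM, and Spry1 had 27.8, 27.0, 31.5 and 26.2, with no steady order. Pooled over all libraries Megf10 stayed between 64.8 and 75.5 CPM. In single libraries it ran from 51.7 CPM in aged stiff cells with 2 Pax7 UMIs to 81.8 in young stiff cells with 3 or more.

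With at least 3 Pax7 UMIs and no myocyte-like cell left, Fgfr4 was at 173 CPM in aged stiff against 114 in young stiff cells and 170.5 CPM in aged soft against 118 in young soft cells. Sdc3 was at 107 CPM in aged stiff against 164 in young stiff cells and 102 CPM in aged soft against 186 in young soft cells. These groups held 70 cells of aged stiff, 61 of aged soft, 132 of young stiff and 120 of young soft.

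**Figure D5:**
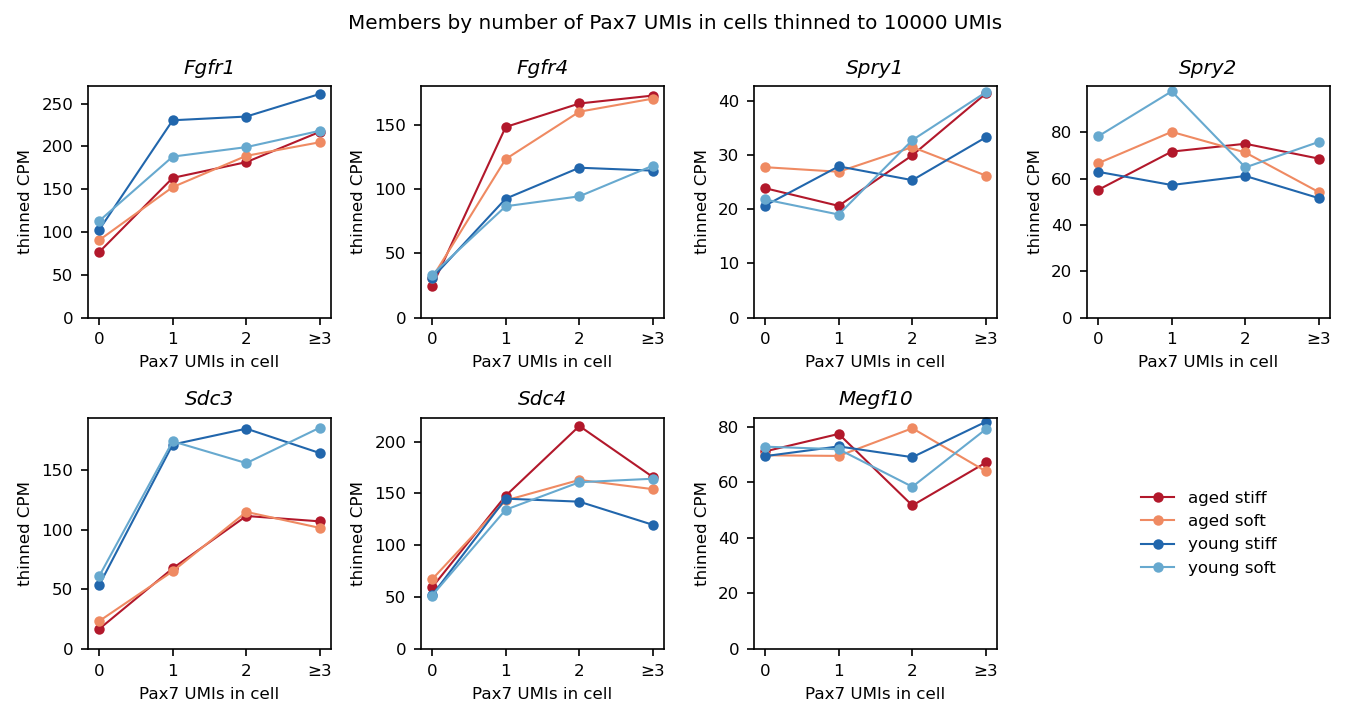
Mean level of each gene in thinned cells (y axis, CPM) against the number of Pax7 UMIs in the cell (x axis), 1 line per library. The aged lines of Fgfr4 run above the young ones from 1 Pax7 UMI on, and those of Sdc3 run below them throughout.

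Other genes of the Fgf and syndecan list were set beside the 7 in the age comparison. In all cells 2 of 57 tested were at least 1.5 times higher and 19 lower in aged cells on stiff, with a median log2 ratio of -0.37, and 1 of 58 higher and 16 lower on soft, with a median of -0.36. Over all genes 378 of 9503 were higher and 1503 lower on stiff, and 345 of 9571 higher and 1359 lower on soft. The feedback inhibitors of this list, which leaves out Spry1 and Spry2, were lower by at least that much in 6 of 6 tested on both substrates. Spry1 and Spry2 stayed within 1.5 times, and Spry1 had the higher mean in aged cells. Aged libraries also held fewer Pax7-detected and more myocyte-like cells, by the shares given at the start, and the part of these in the counts was not tested. Dusp6, the phosphatase that turns ERK off, had 7.79 CPM in aged stiff against 19.3 in young stiff cells and 9.34 CPM in aged soft against 20.5 in young soft cells. In Pax7-detected cells Dusp6 had 13.8 CPM in aged stiff against 29.2 in young stiff cells and 13.7 CPM in aged soft against 31.7 in young soft cells. Of the feedback inhibitors of this list, 7 of 7 on stiff and 4 of 7 on soft were lower past 1.5 times there, beside 1106 of 9805 genes on stiff and 955 of 9828 on soft. Spry1 and Spry2 stayed within 1.5 times in these cells as well. Myocyte-like cells were 33.0% of aged stiff, 30.4% of aged soft, 10.3% of young stiff and 12.8% of young soft Pax7-detected cells, and their part was not tested.

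Sdc2, a further syndecan, had 50.01 CPM in aged stiff against 119 in young stiff cells and 64.8 CPM in aged soft against 135 in young soft cells. Fn1 had 56.0 CPM in aged stiff against 217 in young stiff cells and 68.7 CPM in aged soft against 229.8 in young soft cells, and Notch3 had 22.6 against 60.1 and 26.5 against 62.0 CPM in the same pairs. Egr1, an immediate early factor that ERK induces, had 43.8 CPM in aged stiff against 105 in young stiff cells. Fgf21 went the other way, at 161 CPM in aged stiff against 39.6 in young stiff cells and 142 CPM in aged soft against 47.4 in young soft cells. In Pax7-detected cells it had 61.2 CPM in aged stiff against 5.01 in young stiff cells and 71.4 CPM in aged soft against 17.1 in young soft cells.

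In Pax7-detected cells the list also held Jag1, a Notch ligand. It had 3.88 CPM in aged stiff against 11.9 in young stiff cells, and 3.86 CPM in aged soft against 13.5 in young soft cells. Megf9, listed in the group of Megf10 partners, had 4.63 against 12.1 and 4.54 against 13.4 CPM in the same pairs. Etv4, an ERK-responsive factor, had 3.07 CPM in aged soft against 7.22 in young soft cells. Sulf2, which removes sulphate groups from heparan sulphate, had 8.79 CPM in aged stiff against 1.95 in young stiff cells. On stiff against soft, 0 list genes were past 1.5 times in all cells of either age or in aged Pax7-detected cells, and 1 was in young Pax7-detected cells, Fgf21, at 5.01 CPM on stiff against 17.1 on soft.

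The genes with the most similar profile to each of the 7 were taken from 25 profiles, 1 for each cluster in each library with at least 30 cells, over 8139 genes. Fgfr4 ran closest to Klf7 (Pearson r = 0.98), Cnn2 and Rbm7, Sdc3 to Nadk (r = 0.98), Nectin1 and Myh9, Sdc4 to Tmem173 (r = 0.98), Mrpl20 and Lrp1, and Fgfr1 to Npc2 (r = 0.97), Plin2 and Gm26735. The likeness was weaker for Spry2, with Nob1 (r = 0.88), Ccdc58 and Larp4, for Megf10, with Tomm5 (r = 0.88), Sirt2 and Rwdd4a, and for Spry1, with Abcc5 (r = 0.80), Plpp3 and Acaa2. Among the 7 the closest pair was Fgfr1 and Sdc3 (r = 0.94), and Spry1 and Megf10 were the most unlike (r = -0.44). The profiles share libraries and clusters, and the correlations are descriptions.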

How the data were processed

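Per the labels' protocols, libraries were made with version 3 of the droplet-based Chromium 3' kit, and Cell Ranger 6.1.2 and Partek are named in the submitters' processing notes, without their roles. The genome build, annotation and filters are not given in the sources used here. The authors deposited log2(CPM + 1) per cell for 13772 genes, a unit found from the values. A further deposited table pairs symbols with Ensembl identifiers.

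Undoing the log2 gave CPM and, from the steps between values, UMIs: 99.9% of values above 0 came out whole within 0.05 in each library. Kept were cells that had 500 or more genes and no more than 20% mitochondrial UMIs. Doublets were not called and remain. Levels are means over cells of CPM. Library comparisons are log2 ratios of mean CPM + 1 over genes with a mean of at least 5 CPM, with no test. UMI sums have exact Poisson intervals, their ratios exact conditional binomial intervals and shares exact binomial intervals, at 95% and for counting error only. Fold changes on a log2(CPM + 1) scale understate the change of low genes.

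Cells were clustered with scanpy 1.11.5 (2000 variable genes without the 7, 30 principal components, 15 neighbours, Leiden resolution 0.5, seed 1) and named from lists of 11 cell classes with at least 3 markers. The test of Pax7-detected against other cells used limma 3.58.1 with a trend and the library as a block, so that each library gave a pair. Pax7 itself was left out, and the procedure was first tested on simulated data. P-values measure how evenly the difference within a library recurs over these libraries, each of a different condition, and not a spread between mice. The 7 genes, the pathway list and the marker lists were chosen with earlier results of these data known. Named besides the 7 were, for each, the 3 genes with the highest correlation. Of the pathway list, up to 6 genes of each library comparison and up to 10 of the Pax7 comparison with the largest difference past the threshold were named. Spry4, Fgf13, Fgfr3 and Fgfrl1 were named after their values were seen. Promoter windows came from RefSeq on GRCm38.p6, which need not be the build of the files.

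Alternatives covered the pseudocount, the filter on low values, summed UMIs, median-of-ratios scaling, the filter on cells, the Pax7 gate, thinning, the myocyte-like cells, the block, each library and the Leiden resolution.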

Additional observations from a re-analysis of the deposited data

Results flagged for a closer look

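Fgfr1 in Pax7-detected cells differed between stiff and soft substrate in opposite directions in the 2 ages. Aged cells had 145 CPM on stiff and 152 CPM on soft, with a ratio of summed UMIs of 0.927 (0.872 to 0.986), and young cells had 216 CPM on stiff and 193 CPM on soft, with a ratio of 1.10 (1.05 to 1.14). The difference between the log2 ratios, aged minus young, was -0.23. It was not tested, since each group is 1 library. Leaving out the myocyte-like clusters, the aged ratio was 0.984 (0.916 to 1.06) and the young ratio 1.08 (1.03 to 1.12).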

How the results depend on the processing

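The calls of Fgfr1, Fgfr4, Sdc3 and Sdc4 as higher in Pax7-detected cells held under every alternative run. Spry2 turned to -0.40 and Megf10 to -0.51 outside the myocyte-like clusters, and Megf10 to -0.017 with a gate of at least 2 Pax7 UMIs. Spry1 passed the threshold with that gate (0.26, limma adjusted p = 0.0175), after thinning (0.26, 0.0452), outside the myocyte-like clusters and without aged soft. Of 77 such values of the 7 genes under alternatives, 70 kept direction and call. Without 1 library, 4947 to 5108 genes were called higher and 1977 to 2122 lower. A filter of at least 20 CPM tests fewer genes and left 3107 called higher. It left 923 (stiff) and 839 (soft) genes at least 1.5 times apart between ages, and 13 (aged) and 9 (young) between substrates. In Pax7-detected cells it left 942 and 769 between ages and 11 and 25 between substrates. With a pseudocount of 5 CPM, 16 genes in each age were that far apart between substrates, and 24 in aged Pax7-detected cells. With no filter these were 80 (aged) and 85 (young). Without myocyte-like clusters, Pax7-detected cells gave 1106 between ages on stiff and 153 between substrates in aged cells. With at least 2 Pax7 UMIs the count between substrates in aged cells was 299, and after thinning 570 in aged and 261 in young cells. For these last settings fewer cells or UMIs enter, and the cause was not otherwise tested. Of the log2 ratios of the 7 genes between libraries, 203 of 224 over all cells and 129 of 168 in Pax7-detected cells stayed within their counting interval. Fgfr4 in Pax7-detected cells, aged over young on stiff, went to -0.13 with summed UMIs, against 0.59 after thinning. All 56 shares moved with the depth of thinning. At a Leiden resolution of 1.0 the highest cluster mean moved for 2 of 7 genes, Fgfr1 to 249.9 CPM against 235 and Fgfr4 to 168 CPM against 159.9.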
